A study of Homo sapiens with 12 samples.

Results

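Epithelial cell junction genes were examined by RNA-seq in SNU308 cells, a human gallbladder cancer line, after knockdown of CEACAM6, a cell surface adhesion glycoprotein of the immunoglobulin superfamily. The 44 genes were taken from a list of adherens junction, desmosome and tight junction components given by symbol, and all 44 were found among the 60617 genes of the deposited files. They comprised 14 adherens junction genes, 11 desmosome genes, 16 tight junction genes and 3 genes of epithelial identity. Cells received 25 nM of a non-targeting control siRNA (NTC), siCEACAM6#2 or siCEACAM6#3 and were harvested on day 3, with 4 replicates per group and 12 samples in total. The design text speaks of 4 individual experiments but does not say that the cultures were separate, so p-values measure the spread between these samples, which may be in part technical. All samples came from 1 cell line, every group was transfected, and no untransfected cells were among them. The transfection was transient.

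Epithelial cells are held together by 3 kinds of junction. In adherens junctions, cadherins bind each other across the gap between cells and pass the load through catenins to actin, with nectins and afadin as a parallel system. Desmosomes use desmogleins and desmocollins, plakoglobin, plakophilins and plakins to anchor keratin filaments. Tight junctions seal the space between cells with claudins and MARVEL proteins held by cytoplasmic scaffolds. In glandular and biliary epithelium these junctions contribute to the barrier and the polarity of the duct. Loss of epithelial junction genes is a common sign of a shift towards a mesenchymal state.

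The siRNA sequences are shown because the junction genes were also searched for sites that the siRNA seeds could pair with. Each target sequence, as printed in the study's list of materials, matched exon 6 of 6 of CEACAM6 in the 3′ untranslated region (UTR), on the plus strand of chromosome 19 (GRCh38, GENCODE 44). The siCEACAM6#2 target lay at chr19:41771369-41771389 and the siCEACAM6#3 target at chr19:41771611-41771631. Capitals mark guide positions 2 to 8 (the seed) or the 7 bases that pair with them, and each guide is the complement of its target read backwards.
siCEACAM6#2 target: cagccatgcaatgCCAAATAa
siCEACAM6#2 guide: tTATTTGGcattgcatggctg
siCEACAM6#3 target: ctcctaatagtcaTACTAGTa
siCEACAM6#3 guide: tACTAGTAtgactattaggag

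A seed site was searched for on the transcript strand in the 3′ UTR of 1 reference transcript per gene (MANE Select), by exact match, among 13446 tested genes with such a UTR, including all 40 tested junction genes. The siCEACAM6#2 site CCAAATA occurred in 15.6% of the 13446 genes and in 7 of the 40 junction genes (AFDN, DSG2, DSC2, DSC3, PERP, OCLN and CXADR). The siCEACAM6#3 site TACTAGT occurred in 6.75% of genes and in 3 of the 40 (NECTIN3, DSC2 and DSC3), with 2 sites in NECTIN3. The junction genes had longer UTRs than the tested genes at large, with medians of 1662.5 and 1290 bases. The site of PERP is shown because PERP was the member that passed the test, and the NECTIN3 sites because this gene held a pair of them. The PERP site lay in exon 3 of 3 at chr6:138091671-138091677 on the minus strand, and the NECTIN3 sites in exon 6 of 6 at chr3:111135102-111135108 and chr3:111136488-111136494 on the plus strand.
PERP, siCEACAM6#2 site in capitals: tcttgttatttCCAAATAgaatggactcg
NECTIN3, first siCEACAM6#3 site in capitals: gaatactgaagTACTAGTtttagaaatga
NECTIN3, second siCEACAM6#3 site in capitals: taagaatctgaTACTAGTgcttaagactt

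Each sample held 21799476 to 22059456 estimated counts, and the 44 junction genes took 0.859% to 0.913% of them. CEACAM6 itself checked the labels. Its level was 524, 569, 596 and 619 CPM (counts scaled to library size) in the NTC samples, 353, 343, 286 and 329 CPM with siCEACAM6#2 and 423, 386.5, 424 and 438 CPM with siCEACAM6#3. The 3 groups did not overlap, and CEACAM6 fell by 0.82 (SE 0.07) and 0.46 (SE 0.07) on the log2 scale with siCEACAM6#2 and siCEACAM6#3 (adjusted p = 2.71e-05 and 0.0151 by limma-voom with Benjamini-Hochberg adjustment). The call with siCEACAM6#3 was lost when NTC replicate 2, 3 or 4 or siCEACAM6#3 replicate 3 was left out (adjusted p up to 0.0792). It was also lost in the fits on TPM, a unit described below. Mitochondrial genes took 11.8% to 12.9% of counts in NTC, 12.2% to 13.3% with siCEACAM6#2, and 12.5% in siCEACAM6#3 replicate 1 against 14.3% to 15.3% in the other siCEACAM6#3 samples. With mitochondrial genes left out, an alternative added after seeing the data, the junction genes called were 1, 0, 0 and 1 in the 4 contrasts described below, as with these genes kept. Bulk RNA cannot tell fewer cells of a kind from less RNA per cell.

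Most of the 44 junction genes were expressed in SNU308 cells. Levels between genes are given in TPM, a unit that corrects for transcript length and depth, as the mean over the 12 samples. Of the 44 genes, 39 had a mean of at least 1 TPM and 12 a mean of at least 100 TPM. Epithelial markers of the biliary and glandular type summed to 9467 to 10990 TPM per sample, led by the keratins KRT19 and KRT7, while fibroblast markers summed to 2.84 to 5.21 TPM (8 genes, 1 of them at 1 TPM or above, POSTN at 0 in every sample). Endothelial markers summed to 1.57 to 3.03 TPM over 6 genes, and leukocyte markers to 31.1 to 65.02 TPM over 7 genes, of which CD68, a lysosomal protein, gave 28.5 to 61.9 TPM and the pan-leukocyte gene PTPRC at most 0.249 TPM.

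**Figure D1:**
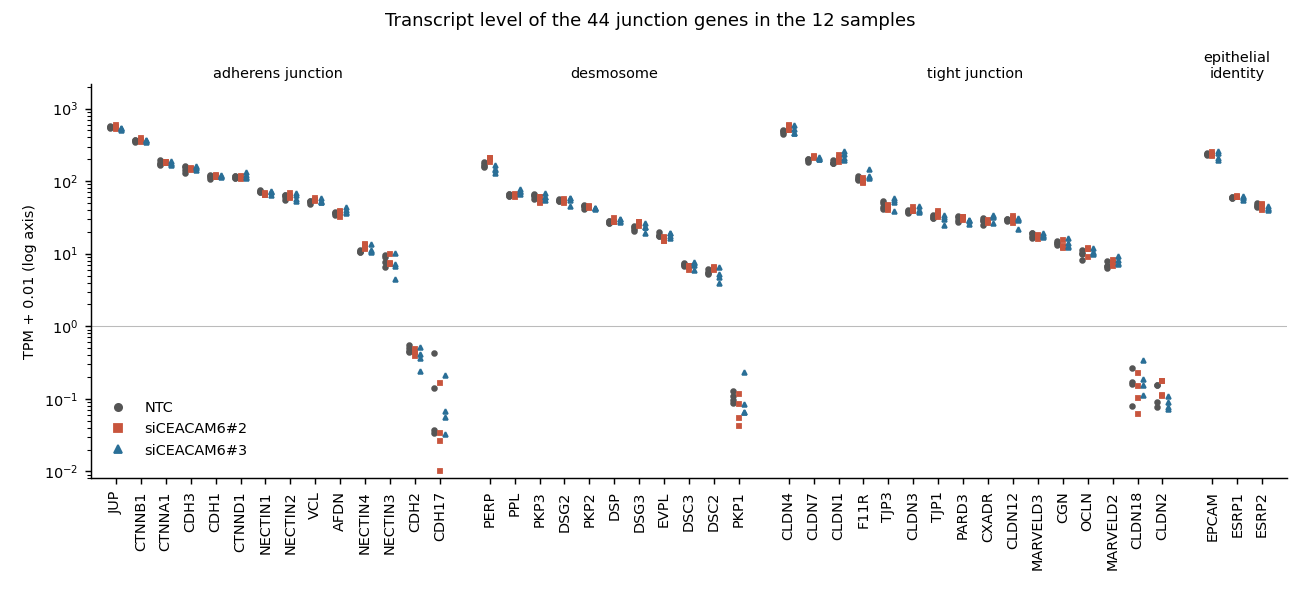
Transcript level of each of the 44 junction genes in TPM + 0.01 on a log axis, with 1 point per sample and colour and shape by siRNA group, ordered by mean level within each junction type. The grey line marks TPM + 0.01 = 1. CDH2, CDH17, PKP1, CLDN18 and CLDN2 sit below it, and JUP and CLDN4 are the highest genes, at means of 549 and 513 TPM.

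Among adherens junction genes, 3 catenins had the highest means. JUP (plakoglobin, shared by adherens junctions and desmosomes) had the highest mean of the 14, at 549 TPM (509.6 to 594 over the 12 samples), followed by CTNNB1 (β-catenin) at 361.5 TPM and CTNNA1 (α-catenin) at 179 TPM. CTNND1 (p120-catenin), at 115 TPM, lay below CDH3 and CDH1. The 4 catenins kept this order in 12 of 12 samples, with no overlap between the ranges of neighbours. Of the cadherins, CDH3 (P-cadherin) at 149.9 TPM lay above CDH1 (E-cadherin) at 117 TPM in 12 of 12 samples, by 1.09 to 1.499 times. CDH2 (N-cadherin), which is commonly gained in mesenchymal cells, stood at 0.429 TPM, and CDH17 (liver-intestine cadherin) was the lowest adherens junction gene at 0.0940 TPM. CDH17 had 0 to 5 counts per sample. Its count of 0 in siCEACAM6#2 replicate 1 allows up to 3 counts, or 0.136 CPM, by counting error alone. Among nectins, NECTIN1 (69.3 TPM) and NECTIN2 (61.3 TPM) overlapped in range and kept their order in 11 of 12 samples, well above NECTIN4 (11.7 TPM) and NECTIN3 (7.74 TPM).

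In desmosomes, PERP, a tetraspan membrane protein of desmosomes and a known p53 target, had the highest mean at 172 TPM, and PKP1 the lowest at 0.0875 TPM (2 to 11 counts). DSG2, the desmoglein of simple epithelia, made up 59.7% of the summed TPM of the 4 desmosomal cadherins. DSG3, best known from stratified epithelium, made up 26.5%, and the desmocollins DSC3 and DSC2 made up 7.63% and 6.22%. DSC3 exceeded DSC2 in 12 of 12 samples although their ranges overlapped. PKP3 (59.6 TPM) lay above PKP2 (43.7 TPM), and among plakins PPL (periplakin, 66.8 TPM) lay above DSP (desmoplakin, 28.1 TPM) and EVPL (envoplakin, 17.4 TPM), each in 12 of 12 samples.

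Among tight junction genes, CLDN4 was the most abundant at 513 TPM and made up 51.7% of the summed claudin TPM. CLDN7 (206 TPM) and CLDN1 (203 TPM) overlapped in range, with CLDN7 higher in 4 of 4 NTC samples, 3 of 4 siCEACAM6#2 samples and 1 of 4 siCEACAM6#3 samples, and CLDN3 (39.7 TPM) and CLDN12 (29.1 TPM) followed. CLDN18 (0.158 TPM, 3 to 17 counts) and CLDN2, a pore-forming claudin (0.107 TPM, 2 to 8 counts), were close to the lower limit of detection, and their order changed between samples. MARVELD3 (17.8 TPM) exceeded OCLN (occludin, 10.6 TPM) and OCLN exceeded MARVELD2 (tricellulin, 7.44 TPM) in 12 of 12 samples, although the ranges of the latter pair overlapped. F11R (JAM-A), an adhesion receptor of the immunoglobulin type, reached 111 TPM against 29.4 TPM for CXADR, a related receptor. Of the scaffolds, TJP3 (47.1 TPM), TJP1 (ZO-1, 32.6 TPM) and PARD3 (29.9 TPM) overlapped with their neighbours in range, and CGN (cingulin, 13.7 TPM) lay below them. In the epithelial identity group, the adhesion molecule EPCAM was highest at 234 TPM, and ESRP2, 1 of 2 epithelial splicing regulators in the list, was lowest.

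The spread of the junction genes between replicates was wider with siCEACAM6#3, and whether other genes shared this was not tested. Over the 39 genes with a mean of at least 1 TPM, the median coefficient of variation of TPM within a group was 5.32% in NTC, 5.82% with siCEACAM6#2 and 9.51% with siCEACAM6#3, and NECTIN3 had the largest value in each group (16.5%, 16.1% and 32.1%). Summed over all 44 genes, the level was 3758 ± 39.7 TPM in NTC, 3877 ± 28.3 TPM with siCEACAM6#2 and 3818 ± 127 TPM with siCEACAM6#3 (mean ± SD, n = 4). The siCEACAM6#2 samples (3842 to 3907 TPM) all lay above the NTC samples (3722 to 3814 TPM), whereas the siCEACAM6#3 samples (3719 to 3987 TPM) spanned both.

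The types differed in where these sums lay. Adherens junction genes summed to 1713 ± 23.1, 1719 ± 41.8 and 1703 ± 44.8 TPM in NTC, siCEACAM6#2 and siCEACAM6#3, with overlap between all groups. Tight junction genes summed to 1223 ± 35.3, 1319 ± 67.0 and 1326 ± 111 TPM, of which claudins made up 926 ± 36.4, 1031 ± 63.8 and 1013 ± 91.1 TPM. Desmosome genes summed to 477 ± 13.3, 499 ± 20.4 and 459 ± 32.0 TPM, and the epithelial identity genes to 344 ± 8.43, 339.6 ± 17.2 and 329.8 ± 34.1 TPM. Within every type the siCEACAM6#3 range overlapped the NTC range.

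**Figure D2:**
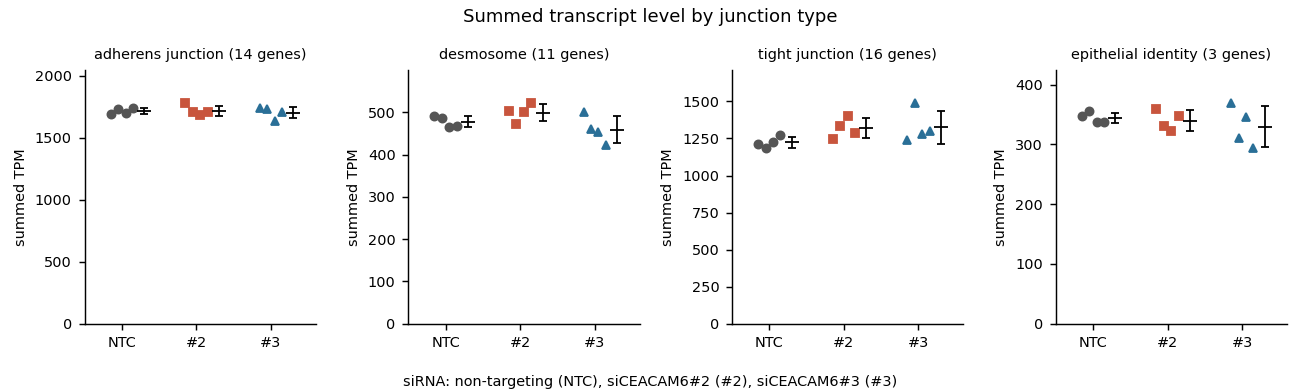
Summed TPM of the genes of each junction type, with 1 point per sample and the mean and SD of the 4 replicates as bars, for NTC, siCEACAM6#2 and siCEACAM6#3, on axes that start at 0. The adherens junction sums of the 3 groups coincide near 1713 TPM, and the siCEACAM6#3 samples are the most scattered in the desmosome, tight junction and epithelial identity panels.

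To ask which junction genes differed after knockdown, counts were compared by limma-voom across 17620 genes, 40 of them junction genes. CDH17, PKP1, CLDN2 and CLDN18 were filtered out for low counts and were not tested. A gene was called when its Benjamini-Hochberg adjusted p over all genes of a contrast was under 0.05.

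With siCEACAM6#2, 1 of the 40 tested junction genes passed the test, PERP, which rose. Across all genes 1.25% passed. At an unadjusted p under 0.05, 7 junction genes were higher and 2 lower (9 of 40, against 13.6% of all genes). The median log2 fold change of the 40 was 0.04, against 0.00 over all genes, and values ran from −0.14 to 0.26. In 6 junction genes every siCEACAM6#2 sample lay above every NTC sample, where 5.34% of all genes did so, and in 1, DSC3, every sample lay below, where 5.42% of all genes did so.

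Taken by type, no adherens junction gene of 13 tested passed with siCEACAM6#2, and at an unadjusted p under 0.05 NECTIN4 and VCL (vinculin) were higher and NECTIN1 lower. Of the 10 desmosome genes, PERP passed, and DSG3, DSC2 (both higher) and PKP3 (lower) reached an unadjusted p under 0.05. Of the 14 tight junction genes none passed, and CLDN7 and CLDN4 were higher at that level. The 3 epithelial identity genes had log2 fold changes of −0.04 to 0.03.

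With siCEACAM6#3, 0 of the 40 passed, against 0.0681% of all genes, which is 12 genes. At an unadjusted p under 0.05, 6 junction genes were higher and 2 lower (8 of 40, against 12.5% of all genes). edgeR's quasi-likelihood test also called 0 of the 40, and DESeq2 called 2 (PPL and CLDN1). The median log2 fold change was 0.04, with values from −0.41 to 0.34. Non-overlap occurred upwards in 6 junction genes (CDH1, DSP, PPL, CLDN1, OCLN and MARVELD3), against 2.99% of all genes, and downwards in 1, ESRP2, against 3.29% of all genes.

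For the average of both siRNAs versus NTC, 0 of the 40 passed, against 0.227% of all genes, and 8 had an unadjusted p under 0.05 (7 higher and 1 lower), against 12.9% of all genes. edgeR called 0 and DESeq2 called 1, CLDN1. In 0 junction genes did all 8 knockdown samples lie on 1 side of all NTC samples, where 1.61% of all genes did so.

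The 2 siRNAs were then compared directly, since a contrast past the threshold with 1 of them does not show that they differ. Between siCEACAM6#3 and siCEACAM6#2, 1 of the 40 passed, again PERP, which was lower with siCEACAM6#3, against 1.47% of all genes. At an unadjusted p under 0.05, 4 were higher and 4 lower (8 of 40, against 13.3% of all genes). Of those 8, 5 were desmosome genes, with PPL and EVPL higher and PERP, DSC2 and DSG3 lower. The rest were tight junction genes, 2 higher and 1 lower. This split by type was seen in the values and was not tested. PPL and PERP were the 2 junction genes with no overlap between the siRNA groups, where 6.68% of all genes had none.

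**Figure D3:**
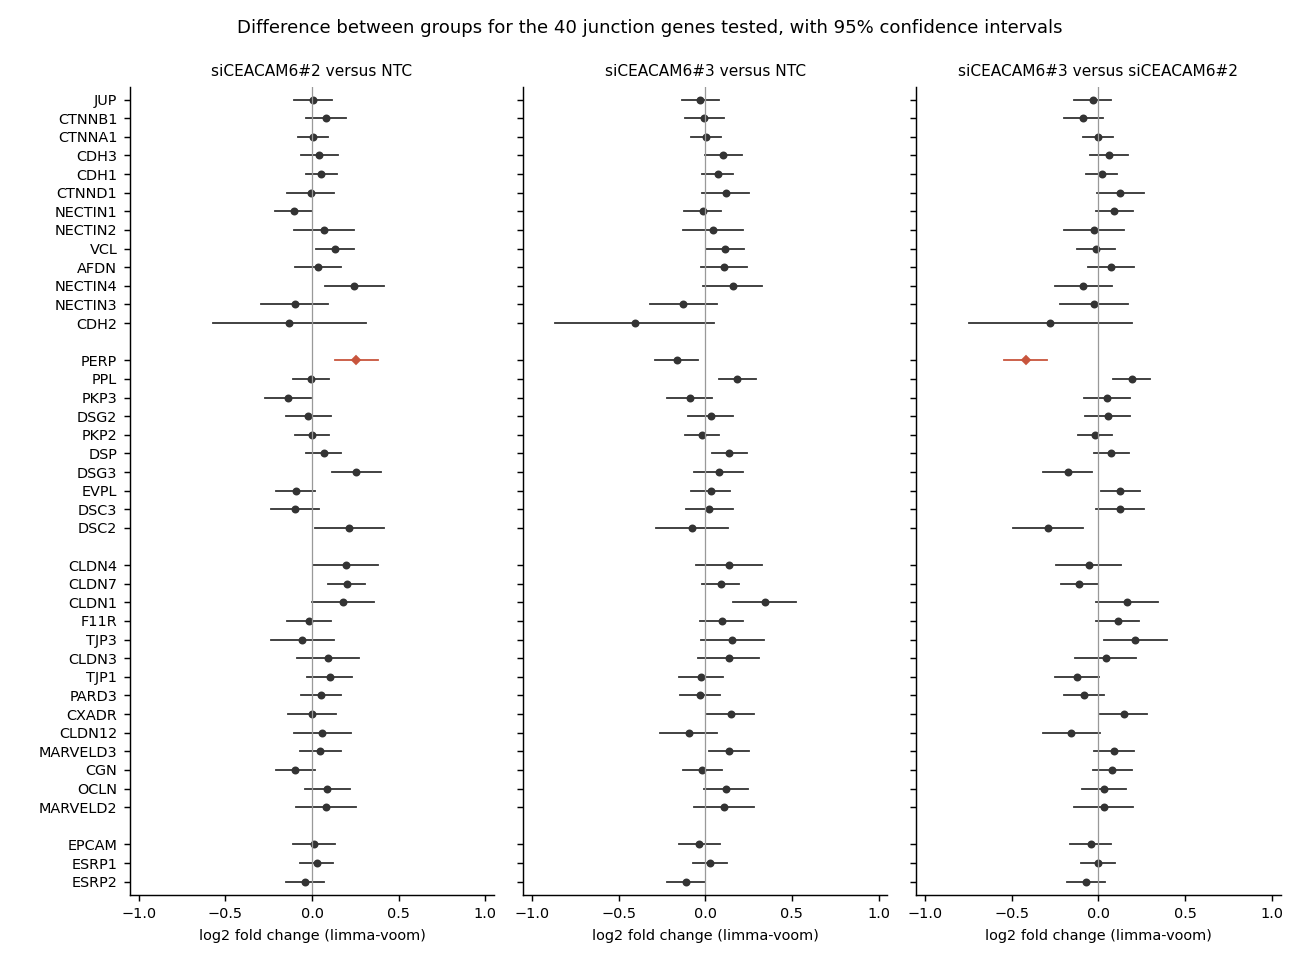
Log2 fold change of each of the 40 tested junction genes with its 95% confidence interval from limma-voom, grouped by junction type, for siCEACAM6#2 versus NTC, siCEACAM6#3 versus NTC and siCEACAM6#3 versus siCEACAM6#2. Red diamonds mark the calls at an adjusted p under 0.05, PERP at 0.26 in the left panel and at −0.42 in the right panel, and CDH2 has the widest interval in each panel.

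The intervals set a bound on what could have been missed. With siCEACAM6#2 the 95% interval lay within 0.5 of 0 on the log2 scale for 39 of the 40 genes, all but CDH2, and with siCEACAM6#3 for 38 of the 40, all but CDH2 and CLDN1. The same was true of 68.5% and 68.8% of all genes tested. CDH2, with 15 to 37 counts per sample, had an interval of −0.57 to 0.31 with siCEACAM6#2 and of −0.87 to 0.05 with siCEACAM6#3, around log2 fold changes of −0.13 and −0.41. Differences within these intervals remained compatible with the data.

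PERP (chr6:138088505-138107419, minus strand) was the junction gene with the smallest p. It stood at 583, 552, 534 and 514 CPM in NTC, at 672, 607, 659 and 666 CPM with siCEACAM6#2, and at 537, 478, 492 and 442.5 CPM with siCEACAM6#3. Every siCEACAM6#2 sample was above every sample of both other groups, and 1 siCEACAM6#3 sample lay within the NTC range. PERP rose by 0.26 on the log2 scale (SE 0.06, 1.19-fold, adjusted p = 0.0447, limma-voom with Benjamini-Hochberg adjustment) with siCEACAM6#2, and its difference of −0.16 (SE 0.06, adjusted p = 0.268) with siCEACAM6#3 did not pass. Between the siRNAs it fell by 0.42 (SE 0.06, adjusted p = 0.00238) with siCEACAM6#3 relative to siCEACAM6#2. The difference between siRNAs passed in 12 of 12 fits that left out 1 sample. The rise with siCEACAM6#2 passed in only 3 of the 12, those without siCEACAM6#3 replicate 1, 2 or 4. Leaving out any NTC sample, any siCEACAM6#2 sample or siCEACAM6#3 replicate 3 ended that call (adjusted p up to 0.162). On the log2(TPM + 1) scale the difference between siRNAs was −0.44 and missed the threshold (limma-trend, adjusted p = 0.0532).

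DSG3 (desmoglein 3) stood at 100.2, 103, 90.97 and 94.5 CPM in NTC, at 121, 109, 117 and 117 CPM with siCEACAM6#2, and at 113, 104, 104 and 89.3 CPM with siCEACAM6#3. The siCEACAM6#2 samples lay above the NTC samples without overlap, and the siCEACAM6#3 samples spread across both. The log2 fold changes were 0.25 (SE 0.07, adjusted p = 0.0778) and 0.08 (SE 0.07, adjusted p = 0.666) by limma-voom with Benjamini-Hochberg adjustment, and neither passed. Without siCEACAM6#3 replicate 1 or 4 the first of these passed (adjusted p = 0.0352 and 0.02), although neither sample belongs to that contrast, since the 3 groups share 1 estimate of the spread.

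PPL, a plakin that links desmosomes and the cornified envelope to keratin, stood at 293, 307, 305 and 321 CPM in NTC and at 293, 318, 306 and 303 CPM with siCEACAM6#2. With siCEACAM6#3 it stood at 336, 374, 329 and 355 CPM, above all samples of the other 2 groups. Its log2 fold change was −0.01 (SE 0.05) with siCEACAM6#2 and 0.19 (SE 0.05) with siCEACAM6#3, and the adjusted p of 0.157 for the latter did not pass. The difference between siRNAs of 0.19 (SE 0.05) had an adjusted p of 0.0719 by limma-voom with Benjamini-Hochberg adjustment. It passed without siCEACAM6#3 replicate 1 (adjusted p = 0.0383).

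CLDN1, a barrier-forming claudin (chr3:190305707-190322446, minus strand), stood at 452, 448, 472 and 496.5 CPM in NTC, at 477, 528, 591 and 522 CPM with siCEACAM6#2, and at 498, 695, 624 and 567 CPM with siCEACAM6#3. The lowest siCEACAM6#3 sample, replicate 1, was level with the highest NTC sample, and the other 3 were well above it. The log2 fold changes were 0.18 (SE 0.08) and 0.34 (SE 0.08), with adjusted p of 0.370 and 0.138 by limma-voom with Benjamini-Hochberg adjustment. Without siCEACAM6#3 replicate 1 the second became 0.43 and passed (adjusted p = 0.0110), and the average of both siRNAs, 0.31 in that fit, passed too (adjusted p = 0.0291). The log2 fold change with siCEACAM6#3 also passed with the replicate number as a block (adjusted p = 0.0471), with sample weights (adjusted p = 0.0189) and with DESeq2 (adjusted p = 0.011), and over the other alternatives that kept all samples the adjusted p was up to 0.451. CLDN7 stood at 166, 160, 176 and 177 CPM in NTC, at 192, 203, 198 and 186 CPM with siCEACAM6#2, and at 177, 188, 171 and 187 CPM with siCEACAM6#3. Its siCEACAM6#2 samples did not overlap with NTC, at a log2 fold change of 0.20 (SE 0.05, adjusted p = 0.0675), which passed without siCEACAM6#3 replicate 4 (adjusted p = 0.0435).

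CDH1, CTNNB1 and EPCAM were described whatever their result, as the core of the adherens junction and the reference marker of epithelium. CDH1 (chr16:68737292-68835537, plus strand) stood at 417, 424, 409.5 and 402 CPM in NTC, at 449, 407, 420.5 and 439 CPM with siCEACAM6#2, and at 431, 439, 433.5 and 432 CPM with siCEACAM6#3. The siCEACAM6#3 samples were tightly grouped just above the NTC range. The log2 fold changes of 0.05 (95% interval −0.04 to 0.14) and 0.07 (−0.02 to 0.16) did not pass (adjusted p = 0.647 and 0.512, limma-voom with Benjamini-Hochberg adjustment).

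CTNNB1 stood at 542, 578, 536 and 550.3 CPM in NTC, at 598.5, 567, 587.5 and 581 CPM with siCEACAM6#2, and at 603.5, 555, 551 and 493.5 CPM with siCEACAM6#3. EPCAM stood at 251.5, 253, 252 and 248 CPM in NTC, at 268, 249.9, 241.5 and 254 CPM with siCEACAM6#2, and at 268, 229, 260.2 and 227 CPM with siCEACAM6#3. In both genes the groups overlapped, and the siCEACAM6#3 samples were the most spread. The 95% intervals of the log2 fold change were −0.03 to 0.20 and −0.12 to 0.11 for CTNNB1 and −0.11 to 0.13 and −0.15 to 0.09 for EPCAM, with siCEACAM6#2 and siCEACAM6#3. Changes larger than these bounds are outside the intervals, which is not the same as showing that the levels were alike.

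**Figure D4:**
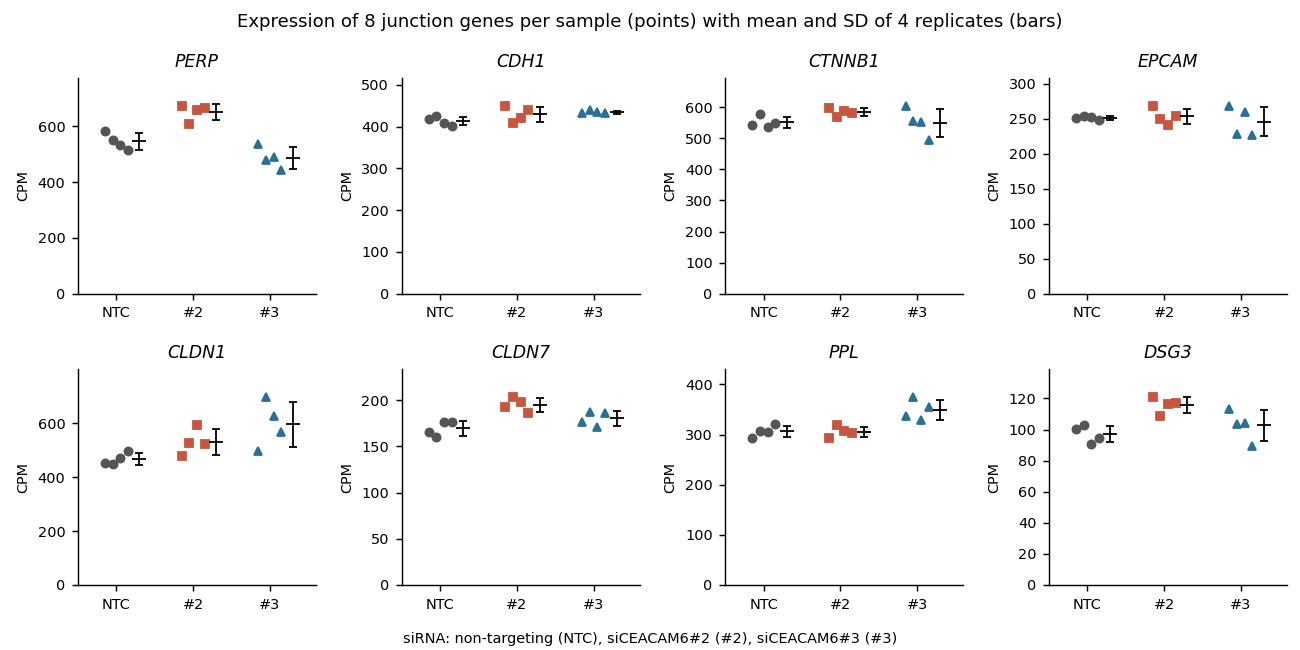
CPM of 8 junction genes in each sample, with the mean and SD of the 4 replicates as bars beside the points, on axes that start at 0, for NTC, siCEACAM6#2 (#2) and siCEACAM6#3 (#3). The 2 siRNA groups stand apart in PERP, at 607 to 672 CPM and 442.5 to 537 CPM, and in PPL, at 293 to 318 CPM and 329 to 374 CPM. CDH1, CTNNB1 and EPCAM show overlapping groups, except that CDH1 with siCEACAM6#3 lies above NTC, though within the siCEACAM6#2 range.

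The genes with a seed site can be set beside these values. PERP, which holds the siCEACAM6#2 site shown above, was higher with that siRNA. The other 6 genes with that site had log2 fold changes with siCEACAM6#2 of 0.03 (AFDN), −0.02 (DSG2), 0.22 (DSC2), −0.10 (DSC3), 0.09 (OCLN) and 0.00 (CXADR), and none passed. NECTIN3, which holds 2 siCEACAM6#3 sites, stood at 18.4 to 20.6 CPM in NTC and at 20.7, 18.5, 18.01 and 14.4 CPM with siCEACAM6#3. Its log2 fold change with siCEACAM6#3 was −0.13, and the other genes with that site had −0.08 (DSC2) and 0.02 (DSC3). The effect of the sites on these levels was not tested.

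Transcript usage was examined through the effective transcript length, taken as the ratio of a gene's count to its TPM after scaling each sample to its median. In this test by limma-trend over 11765 genes with a mean count of at least 100, 0 of 39 junction genes passed in any contrast, and 0 of all genes did. Of all 11765 genes, 593, 840, 783 and 707 had an unadjusted p under 0.05 for siCEACAM6#2, siCEACAM6#3, the average and the difference between siRNAs. Of the 39 junction genes, 1, 5, 1 and 3 did so in the same order. The smallest p among them belonged to F11R, whose effective length differed by −0.17 on the log2 scale between siCEACAM6#3 and siCEACAM6#2 (SE 0.04, adjusted p = 0.412, limma-trend with Benjamini-Hochberg adjustment). F11R was picked here after its value was seen.

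Other genes of cell adhesion were counted from lists of the same kind. Of 18 polarity complex genes, 22 tested members of a further tight junction list, 26 genes of cadherin endocytosis and recycling, 13 gap junction genes and 1 further desmosome gene, 0 passed by limma-voom in any of the 4 contrasts. At an unadjusted p under 0.05, these 5 lists held 0, 4, 2, 1 and 0 genes with siCEACAM6#2, 2, 3, 3, 4 and 1 with siCEACAM6#3, 0, 5, 4, 3 and 0 for the average, and 4, 2, 2, 5 and 1 between the siRNAs. Over all genes the shares at that level were 13.6%, 12.5%, 12.9% and 13.3% in the same order of contrasts. edgeR called 0 of them, whereas DESeq2 called CDC42, ADAM10 and GJB1 between the siRNAs and MMP14 with siCEACAM6#3 and for the average. In a further adherens junction list of 24 tested genes, 6, 7, 8 and 4 had an unadjusted p under 0.05 by limma-voom in the same order of contrasts. In 3 of the 24 all knockdown samples of both siRNAs lay above all NTC samples, where 1.61% of all genes did not overlap. With siCEACAM6#2, with siCEACAM6#3 and for the average 0 of the 24 passed, where 1.25%, 0.0681% and 0.227% of all genes did. Between the siRNAs 1 passed (1.47% of all genes). This was CDH5 (VE-cadherin, also counted as an endothelial marker), which was 1.31 (SE 0.25, adjusted p = 0.0160) higher with siCEACAM6#3 than with siCEACAM6#2 at 0.194 to 0.893 TPM. The call was lost without siCEACAM6#2 replicate 3 or 4 (adjusted p up to 0.0636), and also with DESeq2, in the TPM fits and with only the groups compared. In this list edgeR called LMO7 with siCEACAM6#2 and PLEKHA7 besides CDH5 between the siRNAs. DESeq2 called LMO7 and PTPRM with siCEACAM6#2 and for the average, and CTNNBIP1 and PLEKHA7 between the siRNAs.

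Hemidesmosomes attach epithelium to the basement membrane, not to neighbouring cells, and 9 of their genes were tested. Their median log2 fold change was 0.17 with either siRNA. At an unadjusted p under 0.05 by limma-voom, 6, 5 and 5 of the 9 were higher with siCEACAM6#2, with siCEACAM6#3 and for the average, and 0 were lower. Over all genes 13.6%, 12.5% and 12.9% had such a p in either direction. COL17A1, a transmembrane collagen of hemidesmosomes, rose by 0.52 (SE 0.06, adjusted p = 0.00124, limma-voom with Benjamini-Hochberg adjustment) with siCEACAM6#2, where 1.25% of all genes passed. It averaged 27.6 TPM in NTC, 39.2 TPM with siCEACAM6#2 and 31.6 TPM with siCEACAM6#3. With siCEACAM6#3 it was 0.32 higher than NTC (SE 0.06, adjusted p = 0.0793, limma-voom), without overlap and without passing. For the average of both siRNAs it passed, at 0.42 (SE 0.05, adjusted p = 0.00349, limma-voom), where 0.227% of all genes passed. DESeq2 called COL17A1 with either siRNA, for the average and between the siRNAs. The COL17A1 calls by limma-voom, with siCEACAM6#2 and for the average, held in 12 of 12 fits that left out 1 sample. The call with siCEACAM6#2 was lost on log2(TPM + 1) values without a filter, and that for the average in every TPM fit.

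Among 13 tested factors and markers of the epithelial to mesenchymal transition, 1 passed with siCEACAM6#2 (1.25% of all genes) and 0 in the other contrasts. SNAI3 fell by 0.48 (SE 0.11, adjusted p = 0.0406, limma-voom) with siCEACAM6#2. At an unadjusted p under 0.05 the list held 2, 0, 1 and 4 genes in the 4 contrasts, against 13.6%, 12.5%, 12.9% and 13.3% of all genes. S100A4, a calcium-binding protein, had a log2 fold change of −0.60 (SE 0.17, adjusted p = 0.0972, limma-voom) with siCEACAM6#2, without overlap with NTC, and a difference of 0.66 (SE 0.17, adjusted p = 0.0605) between the siRNAs. DESeq2 called S100A4 in both of these contrasts and TGFBI between the siRNAs, and edgeR called S100A4 between the siRNAs. VIM (vimentin) was 0.39 (SE 0.15, adjusted p = 0.240, limma-voom) higher with siCEACAM6#3 than with siCEACAM6#2, without overlap and without passing. S100A4, VIM and the genes called by edgeR or DESeq2 alone were named after their values were seen. Of 17 tested epithelial transcription factors, 6, 2, 6 and 6 had an unadjusted p under 0.05 by limma-voom in the 4 contrasts, against the same shares of all genes. Of these 17, 2 passed with siCEACAM6#2 (1.25% of all genes), both higher, KLF4 by 0.33 (SE 0.05, adjusted p = 0.00434) and KLF6 by 0.45 (SE 0.08, adjusted p = 0.0169) by limma-voom. KLF4 was also 0.34 lower with siCEACAM6#3 than with siCEACAM6#2 (adjusted p = 0.00189, limma-voom), where 1.47% of all genes passed. Both are zinc finger factors of the Krüppel-like family. DESeq2 also called GRHL1 and TP63 with siCEACAM6#2, KLF4 and KLF6 for the average, and KLF6 and ELF3 between the siRNAs. The KLF4 calls held in 12 of 12 fits that left out 1 sample, and the KLF6 call in 8 of 12 (it failed when siCEACAM6#2 replicate 3 or NTC replicate 1, 3 or 4 was absent). The calls of KLF4 and KLF6 with siCEACAM6#2 were lost in the TPM fits, whereas that of KLF4 between the siRNAs held there. Among 11 tested biliary and glandular markers, 1 passed between the siRNAs (1.47% of all genes). This was MUC1, which was 0.53 (SE 0.11, adjusted p = 0.0247) higher with siCEACAM6#3 than with siCEACAM6#2 by limma-voom. Of the 3 endothelial, 2 fibroblast and 4 leukocyte markers that could be tested, VWF passed, besides CDH5 above. VWF was lower by 0.44 with siCEACAM6#2 (adjusted p = 0.0419, limma-voom) at 1.19 to 2.01 TPM, where 1.25% of all genes passed. The calls of SNAI3 and VWF were each lost when any single NTC or siCEACAM6#2 sample or siCEACAM6#3 replicate 3 was left out, and that of MUC1 when any single siCEACAM6#2 sample or siCEACAM6#3 replicate 2 or 3 was.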

How the data were processed

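RNA-seq libraries of 12 SNU308 samples were made from oligo dT enriched RNA and run on the DNBSEQ platform. Labels and methods disagree on the read layout (stranded paired-end or single-end) and on the transfection reagent. The authors used trim_galore 0.6.4 for trimming and kallisto for quantification against GENCODE transcripts (GRCh38.p13). The annotation release and the summing to genes are not given in the sources used here. Estimated counts without depth scaling and TPM were deposited for each gene. Kallisto divides ambiguous reads by estimation, so genes with near-identical copies are uncertain. Symbols came from a table of gene names, which matched 60357 of 60617 identifiers.

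Estimated counts were rounded to whole numbers. Genes were filtered with filterByExpr by group (17620 left), scaled by TMM and fitted by voom in 1 model of the 3 groups without covariates (limma 3.58.1, edgeR 4.0.16, R 4.3.3). CPM used TMM-scaled library sizes. Coordinates and 3′ UTRs came from GENCODE 44 on GRCh38. Groups came from the labels. Total counts per sample ran from 21799476 to 22059456, and precision was lowest in genes with few counts. The procedure was tested on simulated data. The planted changes were larger than those called in junction genes, so this test does not bear on calls of that size. Alternatives were other scaling, filters, sample weights, a replicate block, edgeR, DESeq2 1.42.0, log2(TPM + 1) and log2(TPM + 0.1) values with limma-trend, only the groups compared, and each sample left out.

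The members, lists and tests were chosen with earlier results of these data known. All 12 values were given for called members, for CDH1, CTNNB1 and EPCAM, and, to reach 8 genes, for those with the smallest p (CLDN1, CLDN7, PPL and DSG3). The genes with the highest and lowest mean TPM of each type and called genes of the other lists were also named, except for a result that is not reported here.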

Additional observations from a re-analysis of the deposited data

Results flagged for a closer look

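PERP differed between the 2 siRNAs. Its level was 0.42 lower on the log2 scale (a difference of −0.421) with siCEACAM6#3 than with siCEACAM6#2, with an adjusted p of 0.00238 for the difference itself by limma-voom with Benjamini-Hochberg adjustment. No sample of either siRNA group overlapped the other. The 8 junction genes given per sample were also searched for single samples that stood apart from their group, by Dixon's ratio at its 95% critical value, and 0 of the 24 groups held one.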

How the results depend on the processing

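The number of junction genes called changed with the processing. With siCEACAM6#2 it was 1 (PERP) and became 0 with library size only and with limma-trend on log2(TPM + 1), log2(TPM + 0.1) or log2(TPM + 1) without a filter. It became 4 with sample weights (PERP, DSG3, NECTIN4 and CLDN7), 3 with DESeq2 and 3 with only the groups compared (PERP, DSG3 and CLDN7 in each), and 0 to 3 when 1 sample was left out. With siCEACAM6#3 it was 0 and became 1 with sample weights (CLDN1) and 2 with DESeq2, and it was 0 to 1 when 1 sample was left out. For the average it was 0 and became 2 with sample weights (DSG3 and CLDN1) and 1 with DESeq2, with 0 to 1 when 1 sample was left out. Between the siRNAs it was 1 and became 2 without a filter on low counts and with DESeq2 (PERP and PPL), 0 with the 3 TPM fits, and 1 to 4 when 1 sample was left out. The cause of these changes was not tested. Over all genes, DESeq2 called 534, 221, 337 and 556 genes in the 4 contrasts and sample weights 1120, 382, 899 and 560, against 221, 12, 40 and 259 in limma-voom. The TPM fit with a pseudocount of 1 called 5, 0, 2 and 37, only the groups compared gave 600, 10, 11 and 57, and no filter on low counts gave 160, 24, 45 and 211. Leaving out 1 sample gave 49 to 364, 2 to 258, 3 to 204 and 83 to 651 genes.

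Same-numbered samples correlated at −0.293 to 0.577 over 12 pairs, 5 of them over 0.1, and samples of different number at −0.608 to 0.596, so the replicate number was not taken to pair samples. With the replicate number as a block, the calls of the junction genes were 1, 1, 0 and 1, the new one being CLDN1 with siCEACAM6#3 (adjusted p = 0.0471, limma-voom), and all genes called were 284, 87, 118 and 349.

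Among the 8 genes given per sample, directions turned for EPCAM, CTNNB1, CDH1 and PPL. EPCAM with siCEACAM6#2 was −0.0243, −0.0244 and −0.0243 in the 3 TPM fits, and −0.0112 to 0.0353 when 1 sample was left out. With siCEACAM6#3 EPCAM was 0.0149 and CTNNB1 0.0110 with sample weights, CTNNB1 was 0.00567, 0.00569 and 0.00567 in the TPM fits, and leaving out 1 sample gave −0.0693 to 0.00202 for EPCAM and −0.0437 to 0.0454 for CTNNB1. For the average, EPCAM was 0.00811 with sample weights and −0.0271 to 0.00741 when 1 sample was left out. Between the siRNAs, CDH1 was −0.00126 with library size only and −0.00412 to 0.0399 when 1 sample was left out, and EPCAM was 0.0136 with sample weights. PPL with siCEACAM6#2 was −0.0240 to 0.0180 when 1 sample was left out. Leaving out mitochondrial genes, added after seeing the data, changed no number of junction genes called. Effective transcript length gave 0 junction genes called in every fit. The 5 genes with a mean under 1 TPM are limited by depth.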
